A study of Homo sapiens with 4 samples.

Results

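Chromosome 11 carried 1360 of the 21139 genomic intervals that were common to 4 GATA4 CUT&RUN libraries on the 22 autosomes and chromosome X (6.43%). Its members are all intervals of the deposited list on that chromosome. They were split by start position into a long arm (55 Mb and beyond), a short arm (below 51 Mb) and the ground between these limits. All libraries were made from PaTu8988S cells, an established human line whose source was a pancreatic adenocarcinoma. They formed 1 group, for which the labels name no treatment and no altered gene; a control library was not analysed here. Whether they stand for separate cultures is not given in the labels. Each used 500000 cells and 10 ug of the anti-GATA4 antibody MAB2606, and the 4 were deposited as 1 pooled list of positions in build hg19, with no score, read count or gene name.

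GATA4 is a zinc-finger transcription factor that binds GATA motifs in DNA and takes part in forming endoderm, the heart and the foregut organs, the pancreas among them. CUT&RUN locates such a protein by tethering a nuclease to an antibody, so that DNA near the bound protein is cut free and sequenced. A peak caller then marks stretches where fragments pile up, and those stretches are the intervals described here. As background, chromosome 11 is rich in genes. The end of its short arm holds secreted mucin genes and the imprinted domain of IGF2 and H19, the beta-globin genes lie further in, and olfactory receptor genes, which serve smell in the nose, stand in large groups on both arms. The inner long arm holds a gene-dense stretch that includes CCND1, which encodes cyclin D1. These genes are named for orientation only: no hg19 annotation or sequence was used, and no interval was assigned to a gene.

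Over their whole lengths the arms held similar numbers of intervals per Mb, though neither arm was evenly filled. Dense ground lay in the first 3 Mb of the short arm and from 61 to 78 Mb on the long arm. A band of intervals starting between 48 and 56 Mb lay across the arm limits. All are described below. The long arm held 809 intervals in 79.8 Mb, or 10.1 per Mb, and the short arm held 543 in 51 Mb, or 10.6 per Mb. The density ratio of the long to the short arm was 0.952, with a 95% exact binomial interval of 0.853 to 1.06 that covers counting error only and takes the intervals as independent. The remaining 8 intervals lay between the limits. No test of the arms was made, since a single pooled list gives no spread between libraries. The side of 1 on which the ratio fell changed with most alternatives. It was 1.03 after merging intervals within 1 kb, 1.05 among intervals at or above the median width of the list, 1.05 without clusters of 20 or more intervals, 1.07 without the band and 1.28 without the fullest 5 Mb window of the short arm. It was 0.946 with arm lengths taken from first to last interval and 0.814 without the fullest 5 Mb window of the long arm. Leaving out both the first 3 Mb and the band, the long arm held 10.1 and the short arm 6.51 intervals per Mb, a ratio of 1.55. That comparison kept the dense stretch of the long arm from 61 to 78 Mb, with 25.1 per Mb. Outside that stretch the long arm held 10.4 per Mb from 56 to 61 Mb and 5.54 per Mb beyond 78 Mb.

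Both arm limits fell where no interval lay. The last short-arm interval ran from 50780488 to 50781109, and the 8 intervals between the limits lay together from 51567239 to 51593916. The first long-arm interval began at 55000749, only 749 bp past its limit. An empty stretch of 3.41 Mb separated it from the interval before. This stretch was not the longest on the chromosome: an empty stretch of 3.52 Mb lay on the long arm from 96123902 to 99642970. The next longest ran from 40051310 to 43304054 (3.25 Mb) and from 20587074 to 22646655 (2.06 Mb) on the short arm, and from 131395709 to 133390707 (1.99 Mb) near the end of the long arm. How much of any empty stretch, the one between the arms included, could receive mapped reads was not examined. Windows in such stretches were counted like all others. In all, 22 of 1359 distances between neighbours were 1 Mb or longer. The median distance was 27.5 kb, with quartiles of 6.87 and 79.9 kb.

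In windows of 5 Mb the short arm opened at its highest count, with 178 intervals from 0 to 5 Mb. The next windows held 36, 71 and 34 intervals up to 20 Mb, and then 10, 13, 35, 14 and 19 up to 45 Mb. Towards the middle of the chromosome the count stood at 98 from 45 to 50 Mb and 43 from 50 to 55 Mb. Along the long arm the windows held 56 from 55 to 60 Mb, 131 from 60 to 65 Mb, 160 from 65 to 70 Mb, 93 from 70 to 75 Mb and 61 from 75 to 80 Mb. The long arm was sparse after that, with 16, 23, 23, 13, 25 and 17 intervals per window from 80 to 110 Mb. A low rise followed, where the windows starting at 110 and 115 Mb held 38 and 59 intervals, before 30, 34 and 30 in the last windows. The fullest 3 windows held 47.5% of the long-arm intervals in 16 windows, and 68.3% of the short-arm intervals in 10 windows up to 50 Mb. These shares cannot be compared directly, since 3 windows are a larger part of 10 than of 16. The short-arm share also includes the window from 45 to 50 Mb, which overlaps the band.

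By ratio, after 1 was added to each count, the largest change between neighbouring 5 Mb windows was the rise at 45 Mb (98 intervals after, 19 before, a ratio of 4.95). Without the band that rise was 41 after and 19 before, a ratio of 2.10. By difference, the fall at 5 Mb was the largest, with 36 intervals after it and 178 before it. Neither that fall nor the fall at 80 Mb (16 after, 61 before) involved windows of the band. With a step set as a ratio of 2 or more either way and a difference of 20 intervals or more, 10 of 25 pairs on chromosome 11 were steps (40%), 4 upward and 6 downward. Over all 23 chromosomes 25.4% of pairs were steps by this rule. Chromosome 13 had 10 of 19 (52.6%) and chromosome 7 had 12 of 30 (40%), so other chromosomes of similar interval number showed shares as high.

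In windows of 1 Mb the 3 windows at the end of the short arm were nearly level, with 55, 50 and 53 intervals. The window from 3 to 4 Mb held 19 and the next 1. In quarter-megabase windows the fall was placed more finely: 14 intervals lay from 3 to 3.25 Mb and 1 from 3.25 to 3.5 Mb. The interval from 4156075 to 4156581 was followed by an empty 1431 kb. Within the dense end, the quarter-megabase windows held between 3 and 19 intervals, the 3 lying from 1.5 to 1.75 Mb. Elsewhere on the short arm the window from 12 to 13 Mb stood alone, with 31 intervals beside 7 and 12 in its neighbours.

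The long arm rose at 61 Mb, with 33 intervals in the window after and 11 in the window before, a ratio of 2.83 with 1 added to each. Its windows from 61 to 62 Mb and from 63 to 70 Mb each held between 29 and 36 intervals, the highest at 64 to 65 Mb, and the window from 62 to 63 Mb held 22. The counts then lessened over several megabases, with 20, 23 and 27 from 70 to 73 Mb and 22 from 76 to 77 Mb. The interval from 78608853 to 78609568 was followed by an empty 1469 kb. Counts of 20 or more were reached in 19 of the 135 windows of 1 Mb (14.1%), against 7.81% of windows on all 23 chromosomes. Chromosome 13 had 20.6% and chromosome 7 had 9.38%. The 19 on chromosome 11 comprised 13 on the long arm and 6 on the short arm (2 of these in the band). Together they held 47.9% of the chromosome's intervals. Such windows held 52.4% on chromosome 13, 36.8% on chromosome 7 and 54.3% on the other 22 chromosomes pooled. Empty windows numbered 8 of 80 on the long arm and 7 of 51 on the short arm.

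Steps between 1 Mb windows were set as a ratio of 4 or more either way, again with 1 added, and a difference of 10 intervals or more. There were 10 among 133 pairs on chromosome 11 (7.52%), against 5.73% over the 23 chromosomes, 4.21% on chromosome 13 and 12.7% on chromosome 7. Of the 10, 6 lay between 49 and 57 Mb, on both sides of the empty stretch between the arms. The other 4 were the fall at 4 Mb (1 after, 19 before), the rise at 12 Mb (31 after, 7 before), the fall at 103 Mb (0 after, 15 before) and the fall at 131 Mb (1 after, 11 before). The rise at 61 Mb and the fall at 78 Mb (7 after, 15 before) did not reach this size.

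**Figure D1:**
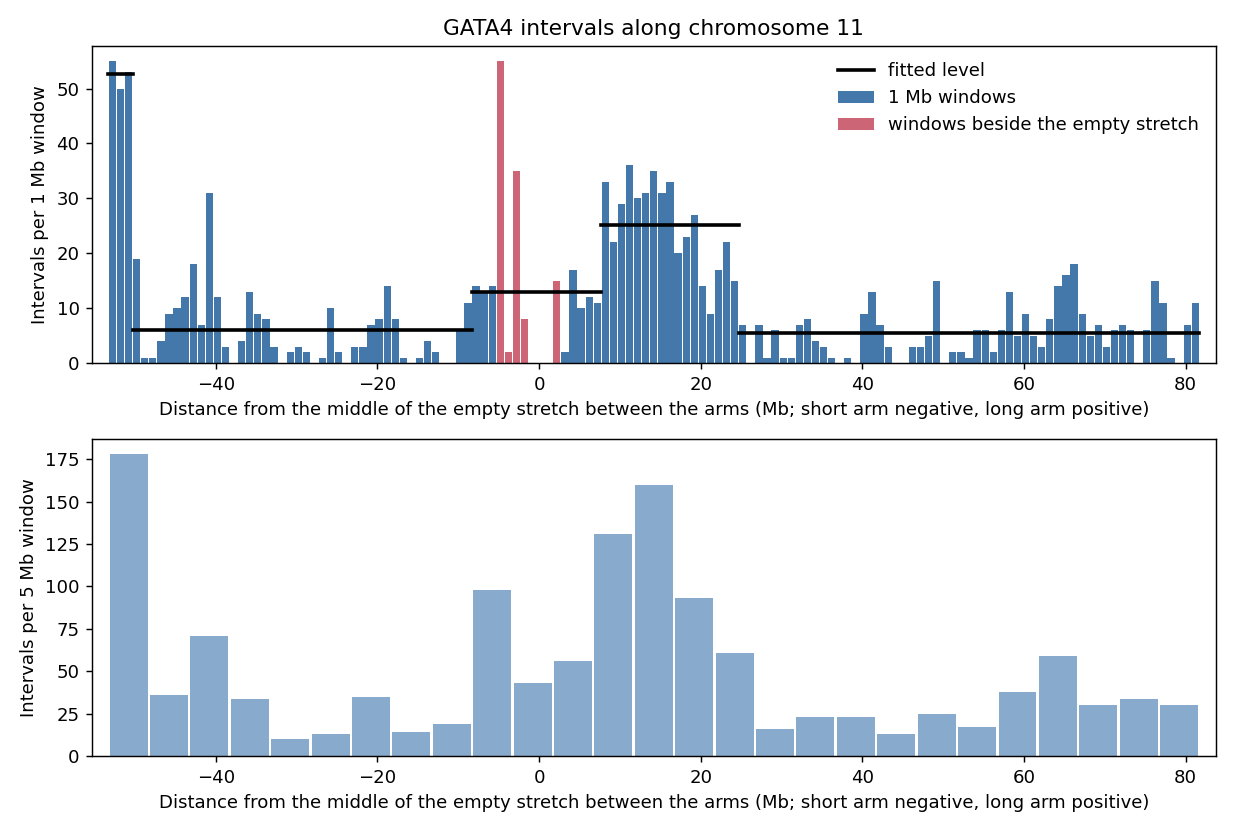
Bars give the number of intervals in 1 Mb windows (top) and 5 Mb windows (bottom) along chromosome 11, placed by distance in Mb from the middle of the empty stretch between the arms, and black lines give the 5 fitted levels. The 3 outermost windows of the short arm hold 50 to 55 intervals, and the dense stretch of the long arm averages 25.1 per Mb. Red windows, labelled as beside the empty stretch, are those of the band from 48 to 56 Mb, where counts rise in isolated spikes.

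Fitting constant levels to the 1 Mb counts gave the same picture in a few numbers. The first break was placed at 3 Mb, and the following ones at 78, 45 and 61 Mb. The resulting 5 stretches, in order along the chromosome, held 52.7, 6, 13, 25.1 and 5.54 intervals per Mb. The end of the short arm thus took 2.22% of the chromosome's length and 11.6% of its intervals (158). The stretch from 61 to 78 Mb took 12.6% of the length and 31.4% of the intervals (427). The long arm beyond 78 Mb took 42.2% of the length and 23.2% of the intervals (315), a density close to that of the short arm between 3 and 45 Mb. The breaks at 3, 61 and 78 Mb were also placed there when the clusters of 20 intervals or more were left out. The break at 45 Mb was not found then, nor without the intervals starting between 48 and 56 Mb. With 5 Mb windows the breaks fell at 5, 80, 45 and 20 Mb, and none was placed near 61 Mb.

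Those intervals between 48 and 56 Mb formed a band of another kind on both sides of the empty stretch. The band held 115 members, of which 15 were on the long arm, 92 on the short arm and 8 between the limits. Of the 115, 108 (93.9%) lay in 8 clusters of 3 or more intervals, and these clusters together spanned 238 kb. A cluster links neighbours up to a fixed distance, the same on every chromosome; on chromosome 11 a distance of 12451 bp was linked and the next longer one, 12508 bp, was not. The largest cluster ran from 48854167 to 48900540 and held 29 intervals. The next ran from 50717460 to 50767767 (23 intervals) and from 55000749 to 55026301 (15 intervals). A further 3 clusters held 10 each, from 48829290 to 48840876, from 48932955 to 48963389 and from 50659967 to 50700594. No other cluster of the chromosome reached 10. The limits of the band were chosen after the counts had been seen.

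Intervals of the band were narrow. Their median width was 341 bp (95% interval 284 to 391 bp from order statistics), against 600.0 bp (578 to 615 bp) for the 1245 members outside it. Of the band, 44.3% were 300 bp or narrower, against 6.59% outside it and 8.77% on the other 22 chromosomes. The 8 intervals between the arm limits were an exception inside the band. They had a median of 880.5 bp and covered 56.1% of the 26.7 kb they spanned, and they included the widest interval of the chromosome, at 51581456 to 51587507 with 6051 bp. The second widest, of 3985 bp, was also among them, at 51589670 to 51593655. The rest of the band had medians of 279 bp on the long arm and 323.5 bp on the short arm.

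The 6 clusters of 10 intervals or more on chromosome 11 were also set beside those of other chromosomes. They held 7.13% of the chromosome's members, against 27.8% of intervals over all 23 chromosomes, 1.18% on chromosome 13 and 14.1% on chromosome 7. Their 97 intervals had a median width of 301 bp, with quartiles of 215 and 501 bp. The 194 clusters of that size on the other 22 chromosomes held 5776 intervals with a median of 763 bp and quartiles of 496 and 1214 bp. Cluster medians on chromosome 11 lay between 254.5 and 406 bp, and 17 of the 194 other clusters (8.76%) had a median below 406 bp. The median distance inside these clusters was 973 bp on chromosome 11 and 1300 bp elsewhere. No test of this difference was made. All 6 clusters of chromosome 11 lay in the band, whereas the 194 others were pooled wherever they lay. Those near the meeting of the arms on other chromosomes were not taken separately.

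**Figure D2:**
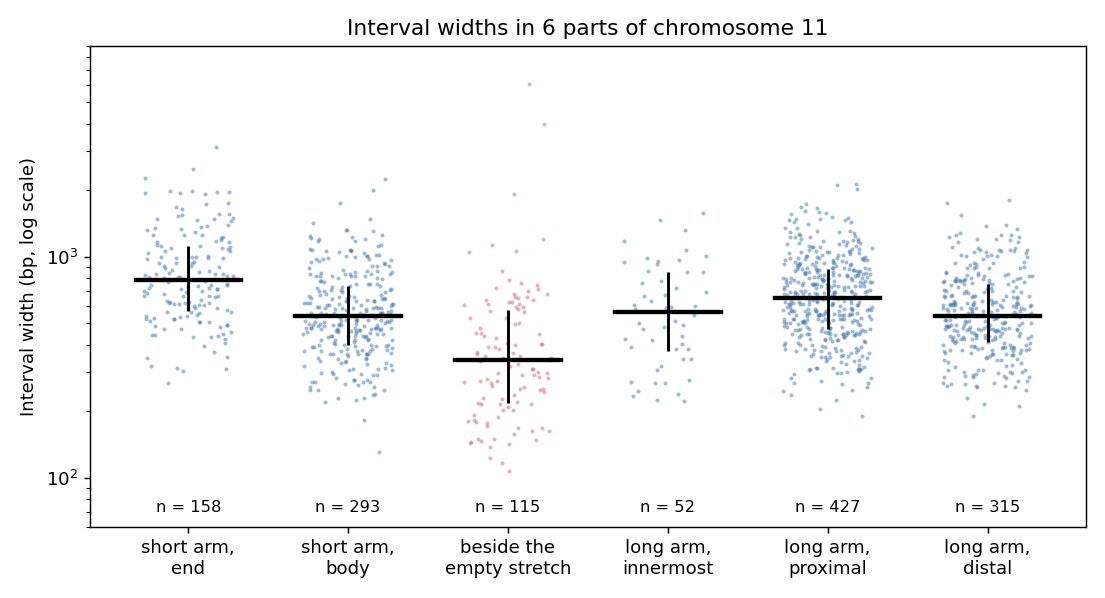
Each point is an interval of chromosome 11, placed by its width in bp on a log scale in 6 parts from the end of the short arm to the end of the long arm, and black lines give the median and quartiles. The 115 intervals of the band, labelled as beside the empty stretch, have the lowest median, 341 bp. The 158 at the end of the short arm have the highest, 785.5 bp.

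Away from the band, width tended to go with density across the stretches, though single windows departed from this. The window from 12 to 13 Mb, for example, held 31 intervals with a median of 530 bp. The median was 653 bp (95% interval 612 to 694 bp) in the stretch from 61 to 78 Mb, and 539 bp (503 to 584 bp) in the sparse long arm beyond it. On the short arm the dense end had a median of 785.5 bp (712 to 860 bp), and the body from 3 to 48 Mb had 538 bp (500.0 to 559 bp). Intervals of 1000 bp or wider made up 15.9% of the stretch from 61 to 78 Mb and 10.8% of the long arm beyond it, and 32.3% of the dense end of the short arm and 10.9% of its body. Over the 77 windows of 1 Mb outside the band with at least 5 intervals, Pearson r between count and median width was 0.55 on the log2 scale and Spearman rho 0.50. With the band included the values were 0.29 and 0.36 over 81 windows. These correlations are descriptions: neighbouring windows share libraries and sequencing depth.

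The arms differed little in width. The long-arm median was 593 bp (572 to 613 bp, quartiles 436 and 822 bp) and the short-arm median 559 bp (530.0 to 588 bp, quartiles 393.5 and 817.5 bp). Without the band the medians were 598 bp on the long arm and 603 bp on the short arm, so the order of the arms turned round. Among the 10 widest intervals, 3 were on the long arm: 2133 bp at 65744905 to 65747038, 2110 bp at 61734065 to 61736175 and 2021 bp at 64125465 to 64127486. The short arm had 5 of them, and 4 of those began within the first 4 Mb. A pair of them, 3145 bp at 2434221 to 2437366 and 2484 bp at 2427900 to 2430384, were close neighbours, and the others were 2273 bp at 2124223 to 2126496 and 2005 bp at 3108667 to 3110672. The fifth, of 2255 bp, began at 12131239 and ended at 12133494, inside the solitary full window from 12 to 13 Mb. Width stands in for the missing score in this ranking, and intervals of 5 kb or wider were 1 on chromosome 11 among 53 in the list.

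Spacing differed between the parts largely by construction, since the parts were cut by interval counts. The limits of the band, too, were chosen after the counts had been seen. The distances below therefore describe the parts and are no separate evidence for them. The median distance to the preceding interval was 1.39 kb in the band and 10.2 kb at the end of the short arm. It was 22.1 kb from 61 to 78 Mb, 58.5 kb in the body of the short arm and 64.7 kb on the long arm beyond 78 Mb. Distances of 100 bp or less numbered 27 of 1359 on chromosome 11 (1.99%), against 4.66% over the 23 chromosomes, 0.988% on chromosome 13 and 3.04% on chromosome 7. The band held 16 of the 27.

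Clusters of 3 or more intervals numbered 94 and held 430 members (31.6%), against 45.1% of intervals over the 23 chromosomes. The share was lower still on chromosome 13 (27.6%) and chromosome 7 (29.2%). On chromosome 11 these clusters took 22% of the intervals of the long arm (46 clusters) and 44.9% of those of the short arm (47 clusters). The band added to this contrast: 93.9% of its 115 intervals were in clusters, and 92 of the 115 were on the short arm. Outside the band the share was 25.9% over the chromosome. It was 20.8% in the body of the short arm and 9.52% on the long arm beyond 78 Mb. Intervals with no neighbour within the linking distance made up 54% of the long arm and 39.6% of the short arm. They made up 50.6% on chromosome 13, 51.8% on chromosome 7 and 39.9% on the other 22 chromosomes pooled. Outside the band the largest clusters held 7 intervals each. On the long arm these ran from 61491912 to 61528513, from 63987963 to 64024453, from 64364871 to 64414040 and from 66610293 to 66636516, and on the short arm from 952291 to 990680 and from 2547398 to 2594039. Their median widths lay between 697 and 1115 bp, above the medians of the 6 large clusters of the band. The stretch from 61 to 78 Mb had 30.4% of its intervals in clusters, against 62.0% at the end of the short arm. These shares depend in part on the densities by which the stretches were cut.

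**Figure D3:**
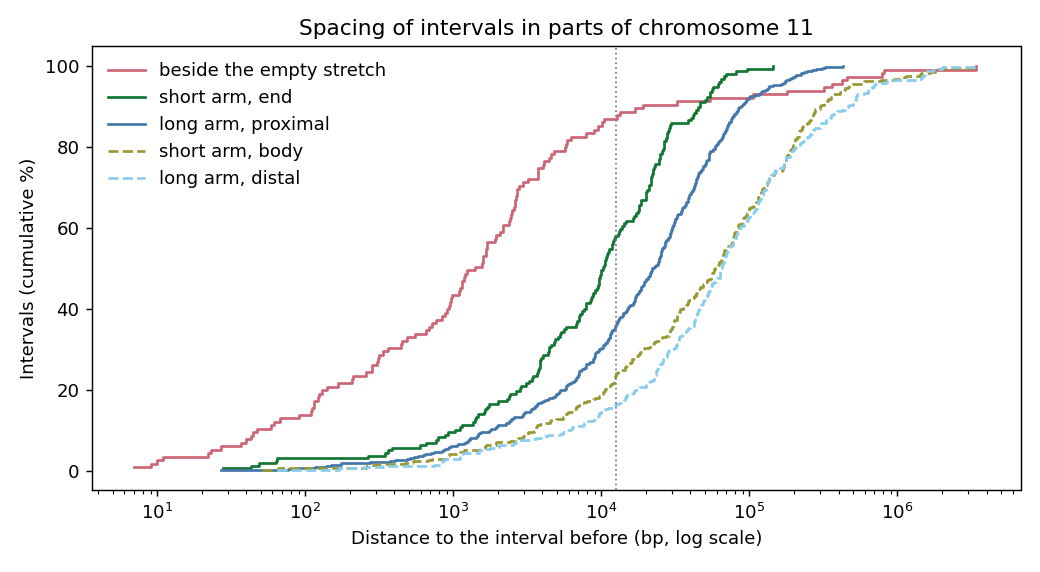
Lines give the cumulative percentage of intervals by the distance in bp (log scale) to the interval before, for 5 parts of chromosome 11, and the dotted line marks the linking distance. The line of the band, labelled as beside the empty stretch, lies farthest left, with a median of 1.39 kb. Those of the short-arm body and the distal long arm nearly coincide, with medians of 58.5 and 64.7 kb.

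The end of the short arm was also set beside the ends of other chromosomes. With 158 intervals in its first 3 Mb, chromosome 11 had the highest count among 23 chromosome starts, where the others had a median of 8, and it ranked 4 among all 46 starts and ends. The last 3 Mb up to its final interval held 18, rank 15 among 23, and the others had a median of 37.5. Chromosomes 3, 13, 14, 15, 21 and 22, with no interval starting in their first 3 Mb, count as 0 at the start and lower the median of 8. Whether intervals could have been called there was not examined.

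As a whole, chromosome 11 ranked 8 of 23 in density, with 10.1 intervals per Mb between its first and last interval, against 7.04 per Mb on the other 22 chromosomes pooled. Chromosome 13 had 10.5 per Mb and chromosome 7 had 8.5. Median width was 582 bp (563 to 603 bp), against 579 bp on chromosome 13, 552 bp on chromosome 7 and 586 bp on the other 22 pooled. The median 1 Mb window held 7 intervals on chromosome 11, against 7 on chromosome 13, 4.5 on chromosome 7 and 2 on the other 22 pooled. The fullest window held 55 on chromosome 11, against 39 on chromosome 13 and 89 on chromosome 7. None of these differences was tested.

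**Figure D4:**
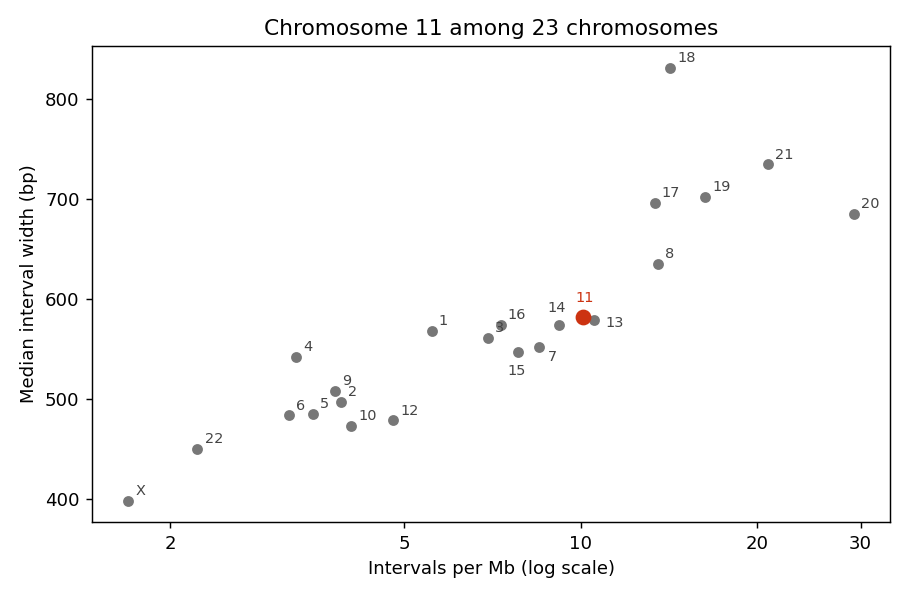
Each point is a chromosome, placed by intervals per Mb between its first and last interval (log scale) and by median interval width in bp. Chromosome 11, in red, lies at 10.1 per Mb and 582 bp, next to chromosome 13 at 10.5 per Mb and 579 bp.

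Per gene, chromosome 11 lay close to the other chromosomes pooled. A RefSeq table of the GRCh38.p14 assembly, used for gene names and chromosomes alone, lists 1301 protein-coding genes there, the third highest number of the 23 chromosomes. Among them are 171 with olfactory receptor symbols, 43.6% of the 392 in the table. There were 1.05 intervals per protein-coding gene on chromosome 11 (rank 10 of 23), against 3.00 on chromosome 13, 1.44 on chromosome 7 and 1.06 on the other 22 pooled; the median of those 22 was 0.791. Leaving out olfactory receptors gave 1.20 on chromosome 11, against 3.00, 1.46 and 1.07. Chromosomes 11 and 13, so close in intervals per Mb and in width, were thus far apart in intervals per gene.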

How the data were processed

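GATA4 CUT&RUN was done in 4 libraries of PaTu8988S, which form 1 group. The authors deposited 1 list of interval positions in bp; per the submitters' processing notes SEACR, HOMER and build hg19 were used. The sources used here give no version, no parameter, no read depth and no overlap rule for a common interval. Whether starts count from 0 or 1 is not stated; widths are end minus start.

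Positions were counted with Python 3.11.15, pandas 2.3.3 and numpy 2.4.6, binomial intervals came from scipy 1.17.1, and plots from matplotlib 3.10.9. An interval belongs to the window of its start. Windows began at position 0, and the last, cut window was left out of steps. Levels are a Poisson fit, split greedily into at most 5 stretches of 3 Mb or more. The fit was tried only on simulated Poisson counts with a single change of rate. That trial does not cover a fit of 5 levels or clustered counts. Intervals of shares, ratios and medians are 95% exact binomial ones, cover counting error only and take intervals as independent. No random placement or resampling was done.

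The members, limits and comparisons were chosen with earlier results of these data known. Named by rule are the 10 widest intervals, the clusters with most intervals, the 5 longest empty stretches, all 5 Mb windows and the fullest 1 Mb windows; clusters beyond the first 5 were named after their values were seen. The planned work on gene starts and motifs needs an hg19 annotation or sequence and was not run. Alternatives were merging within 1 kb, a width minimum, other links, shifted windows, other folds and leaving out dense clusters.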

Additional observations from a re-analysis of the deposited data

How the results depend on the processing

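Of 39 recomputed values, 24 stayed within 1.5 times (counts), within the 95% interval (ratios and medians) or within 1 Mb (the first break), and 15 moved further. Intervals at or above the median width of the list numbered 416 on the long arm and 253 on the short arm, where fewer were counted. The arm density ratio was 0.814 and 1.28 without the fullest 5 Mb window of the long and of the short arm, 1.07 without starts from 48 to 56 Mb and 1.55 when starts below 3 Mb were left out as well, the last 2 chosen after seeing the data. It was 1.03 after merging, 1.05 with the width minimum, 1.05 without clusters of 20 or more and 0.946 with lengths from first to last interval, all within its interval but 3 of these on the other side of 1. The short-arm median width was 604 bp after merging within 1 kb, which widens intervals by construction, and 603 bp without starts from 48 to 56 Mb. Steps between 1 Mb windows, 10 in the report, numbered 6 after merging, 16 with a ratio of 2, 5 with a ratio of 8 and 6 without starts from 48 to 56 Mb. Steps between 5 Mb windows numbered 2 with a ratio of 4. The first break lay at 5 Mb with 5 Mb windows, which allow no nearer position. Clusters numbered 44 with a linking distance of 5 kb. No paired analysis was possible because the libraries form 1 group in 1 pooled list, and for the same reason no library could be left out. With depth unknown, ground without intervals means no more than that the list names none there.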
